A study of Rattus norvegicus with 12 samples.

Results

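The G1 cyclins and the inhibitors of their kinases were followed as 10 genes of the deposited rat table, each chosen by its gene name: the D cyclins Ccnd1, Ccnd2 and Ccnd3, the E cyclins Ccne1 and Ccne2, the Cip/Kip inhibitors Cdkn1a, Cdkn1b and Cdkn1c, and the Ink4 inhibitors Cdkn2a and Cdkn2b. They are 10 of 30957 genes in the table, and each name stood on 1 row. Of the 10, 7 passed the filter on low counts, while Ccnd2, Cdkn2a and Cdkn2b did not.

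In the G1 phase a cell decides whether to copy its DNA. D cyclins, made in answer to growth signals, switch on the kinases CDK4 and CDK6, and E cyclins then switch on CDK2. These kinases phosphorylate the retinoblastoma protein, which frees the E2F factors to transcribe the genes of DNA replication. Ink4 proteins bind CDK4 and CDK6 and keep D cyclins from activating them, and Cip/Kip proteins bind cyclin and kinase together and block CDK2 above all. Schwann cells, the glia of peripheral nerve, stop dividing when they myelinate and divide again after injury to the nerve.

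Messenger RNA was sequenced from rat Schwann cells in 4 groups of 3 libraries: cells grown with macrophages that MIA PaCa-2 cells had induced (MiaTAM), with macrophages that BxPC-3 cells had induced (BxTAM), with macrophages derived from monocytes (MDM), and cells grown alone. MIA PaCa-2 and BxPC-3 are human pancreatic cancer lines, and TAM stands for tumour-associated macrophage. The titles name the cells alone Rsc96, taken here as RSC96, an immortalised rat Schwann line, so each group stands for a single line. The MDM libraries are titled PBMC and carry the same treatment tag, untreated, as cells alone; their source label puts them in co-culture. The labels do not say whether macrophages touched the Schwann cells, of which species they were, or whether the 3 libraries of a group were separate cultures, so p-values measure the spread between these libraries, which may be technical.

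Libraries held 16555215 to 21506669 counts, and 12360 genes were tested. Of 14 Schwann markers found, 6 were under 1 CPM in every group. CPM are counts scaled to a library's total over the tested genes and its scaling factor. Sox10 had 1 count in all 12 libraries and Cdh19 had 0, while Vim, Ncam1 and Pmp22 were well expressed. Of 20 macrophage markers, 14 were under 1 CPM in every group; Tyrobp and C1qa had 0 counts and Ptprc 3 in all libraries together. The summed level of the 20 ran from 66.4 to 70.5 CPM in MiaTAM, 60.2 to 61.9 in BxTAM, 62.9 to 69.1 in MDM and 28.0 to 30.8 CPM in cells alone, led by Itgax. The part of these transcripts in the results that follow was not tested. Mitochondrially encoded genes took 6.15% to 6.95% of counts in MiaTAM, 5.86% to 5.94% in BxTAM, 5.52% to 5.92% in MDM and 5.03% to 5.54% in cells alone.

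The 10 genes covered a wide range of levels. Levels are the deposited FPKM values (counts scaled by gene length and library total), which allow genes to be compared. In each of the 12 libraries Ccnd1 stood highest, with a group mean above 97.5% of tested genes in MiaTAM co-culture and 96.8% in cells alone. Ccnd3, Cdkn1a and Cdkn1b followed. In MDM co-culture Cdkn1a, at 128 ± 5.40 FPKM, stood above Ccnd3, at 109 ± 1.99 FPKM (mean ± SD, n = 3 libraries here and throughout), without overlap. In cells alone Ccnd3, at 81.9 ± 1.32 FPKM, and Cdkn1a, at 79.4 ± 0.886 FPKM, lay next to each other. The E cyclins and Cdkn1c stood under 9 FPKM in every library. The FPKM of Cdkn1c rests on a gene length of 3.085 kb implied by count and FPKM, longer than the 2642 bases the table gives the gene, so its place among the genes is uncertain.

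**Figure D1:**
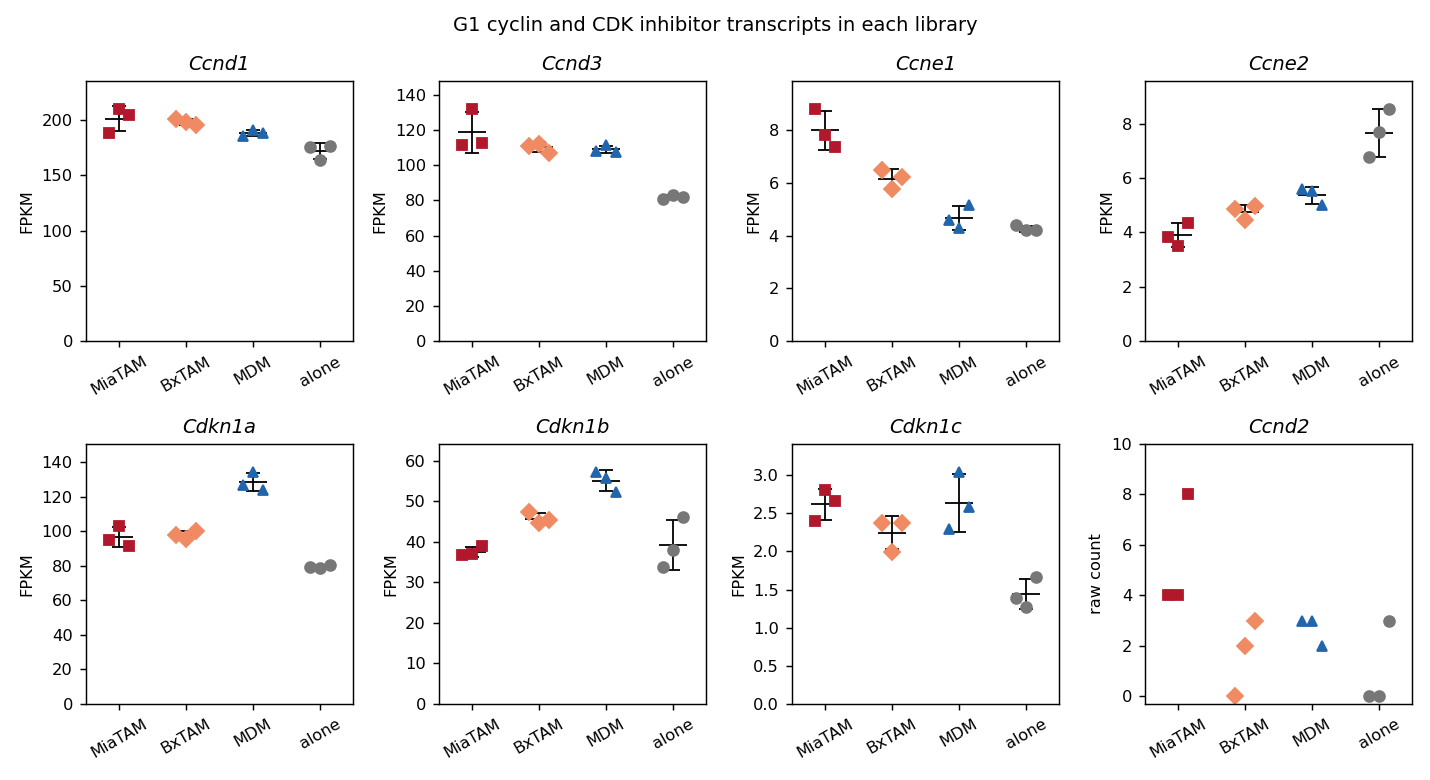
Level of each gene in every library, as FPKM (vertical axes from 0) for the 7 tested genes and as raw count for Ccnd2, with 3 points per group in the order MiaTAM, BxTAM, MDM and cells alone; horizontal marks and bars give mean ± SD of FPKM. Ccne1 is highest and Ccne2 lowest in MiaTAM co-culture, and Cdkn1a and Cdkn1b are highest in MDM co-culture.

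Each change below is a log2 value with its standard error, taken from a single edgeR quasi-likelihood fit to all 12 libraries, and a gene was called at a Benjamini-Hochberg adjusted p under 0.05 over all 12360 genes. Against cells alone, 5 of the 7 tested members were called higher and 1 lower in MiaTAM, 6 higher and 1 lower in BxTAM, and 5 higher and 1 lower in MDM co-culture. The background was high. Of all tested genes, 65.1% were called in MiaTAM (31.4% higher and 33.7% lower), 60.9% in BxTAM (30% higher and 30.9% lower) and 65.1% in MDM co-culture (32% higher and 33.1% lower). Being called therefore sets no member apart, and the direction and size of each change carry the description. The median change of the 7 tested members was 0.29 in MiaTAM, 0.31 in BxTAM and 0.44 in MDM co-culture, beside -0.0063, 0.0010 and -0.0061 for all tested genes. These 3 comparisons share the libraries of cells alone. In such bulk samples fewer cells of a type and less RNA per cell cannot be told apart.

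Against MDM co-culture, 1 member was called higher and 3 lower in MiaTAM, and 1 higher and 2 lower in BxTAM. Of all genes, 41% were called between MiaTAM and MDM (19.8% higher and 21.1% lower) and 34.7% between BxTAM and MDM (17.4% higher and 17.3% lower). Between MiaTAM and BxTAM, 1 member was called higher and 2 lower, where 24.2% of all genes were called (11% higher and 13.3% lower). No tested member changed by 2-fold or more in any comparison, a size that 8.93% of genes reached in MiaTAM, 7.56% in BxTAM and 8.46% in MDM co-culture against cells alone, 1.59% in MiaTAM and 1.75% in BxTAM against MDM, and 0.267% in MiaTAM against BxTAM. The libraries of both groups did not overlap for 6 of the 7 members in each co-culture against cells alone, as for 67.2% of all genes in MiaTAM, 65.9% in BxTAM and 68.9% in MDM. Against MDM this held for 4 of 7 in MiaTAM and 5 of 7 in BxTAM (49% and 47.9% of all genes), and for 4 of 7 in MiaTAM against BxTAM (38.6%).

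**Figure D2:**
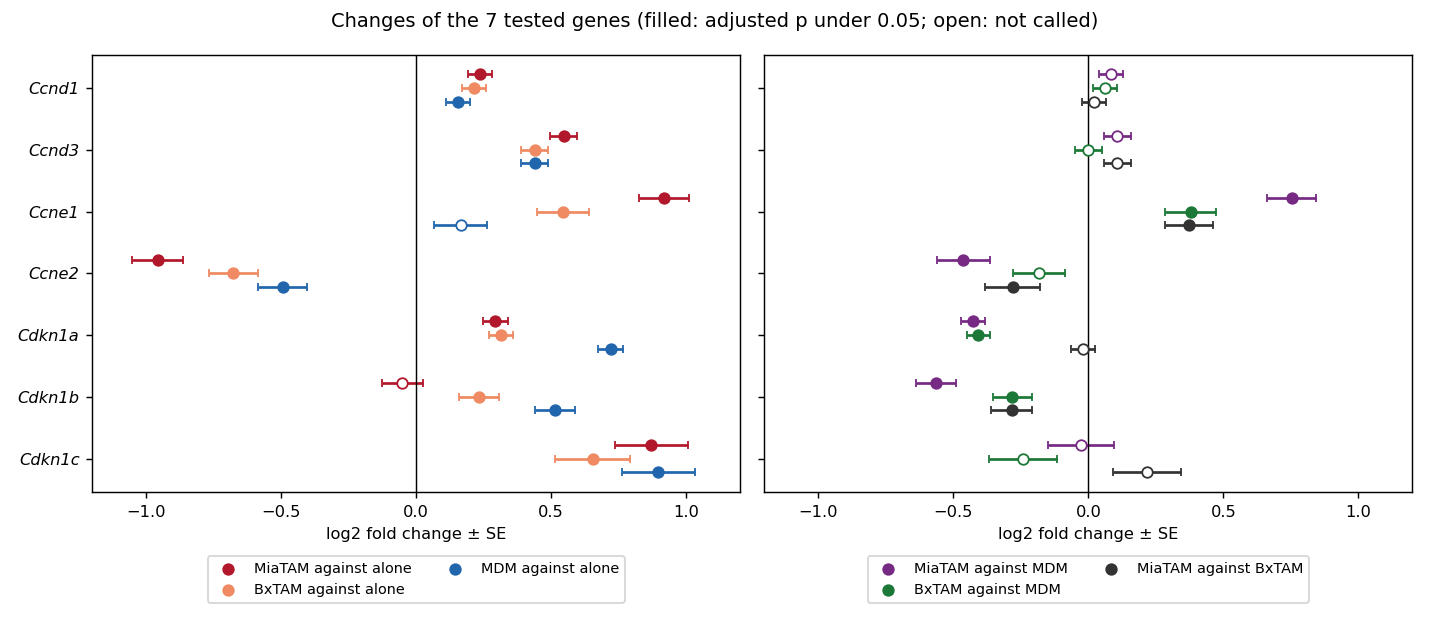
Log2 fold change ± standard error (horizontal axis) of the 7 tested genes (rows), on the left for each co-culture against cells alone and on the right between co-cultures; filled points have an adjusted p under 0.05 and open points do not. Ccne1 and Ccne2 lie on opposite sides of 0 in each co-culture against cells alone, with Ccne1 not called in MDM. Cdkn1b moves with the kind of macrophage.

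Of the 3 D cyclins, the 2 tested, Ccnd1 and Ccnd3, rose in every co-culture, and neither was called between co-cultures. Ccnd1 (chromosome 1, 218090750 to 218100325, Rnor_6.0), which encodes the D cyclin most often tied to growth factor signalling, stood at 188, 209.9 and 205 FPKM in the MiaTAM libraries, 201, 198 and 195 FPKM in BxTAM, 186, 191 and 188 FPKM in MDM and 176, 164 and 177 FPKM in cells alone. Every co-culture library lay above every library of cells alone, and the MiaTAM libraries spanned those of both other co-cultures. Ccnd1 rose by 0.24 ± 0.04 in MiaTAM (adjusted p = 0.000107), 0.21 ± 0.04 in BxTAM (adjusted p = 0.000327) and 0.15 ± 0.04 in MDM co-culture (adjusted p = 0.00522). Between MiaTAM and MDM its change was 0.08 ± 0.04 (95% interval -0.01 to 0.18), and the call was made without MiaTAM library 1 (0.13 ± 0.04, adjusted p = 0.0201, where all alternatives gave 0.0201 to 0.411).

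Ccnd3 (chromosome 9, 15404822 to 15410943), which encodes the D cyclin found in the widest range of tissues, rose more than Ccnd1. It stood at 111, 132 and 113 FPKM in MiaTAM, 111, 112 and 107 FPKM in BxTAM, 108, 111 and 108 FPKM in MDM and 80.6, 83.3 and 81.8 FPKM in cells alone. All 9 co-culture libraries lay above the libraries of cells alone, and MiaTAM library 2 lay apart from its own group. The rise was 1.46-fold in MiaTAM (0.55 ± 0.05, adjusted p = 9.85e-09), 1.35-fold in BxTAM (0.44 ± 0.05, adjusted p = 2.87e-07) and 1.36-fold in MDM co-culture (0.44 ± 0.05, adjusted p = 2.31e-07). MiaTAM against MDM gave 0.11 ± 0.05 (95% interval 0.0018 to 0.21, adjusted p = 0.0975), and without MiaTAM library 1 the adjusted p was 0.0210 (0.0210 to 0.639 over all alternatives). BxTAM against MDM gave -0.00049 ± 0.05 (95% interval -0.11 to 0.10). A pseudogene of Ccnd3 is listed by RefSeq, so the gene's counts may share reads with it.

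Ccnd2, the D cyclin of fewer tissues, was close to absent. Its raw counts were 4, 4 and 8 in MiaTAM, 0, 2 and 3 in BxTAM, 3, 3 and 2 in MDM and 0, 0 and 3 in cells alone. The MiaTAM libraries were the highest, with 16 counts together against 3 in cells alone, a ratio of 5.51 whose 95% counting interval ran from 1.58 to 29.5. With MDM co-culture as the base the ratio was 2.08 (0.840 to 5.61). These intervals cover counting error only.

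Ccnd1 made up less of the D cyclin transcripts in co-culture. It took 62.9% ± 1.53 of their summed FPKM in MiaTAM, 64.3% ± 0.433 in BxTAM, 63.3% ± 0.232 in MDM and 67.7% ± 1.22 in cells alone. No co-culture library reached the lowest library of cells alone, at 66.3%, and with 3 libraries against 3 an exact two-sided permutation test cannot give a p below 0.1, the value found for each co-culture.

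Stretches around the annotated start of transcription, 250 bases before to 50 after it, are printed for 3 of the members whose changes the text turns on, from RefSeq's table for GRCr8; 6 of the 10 members matched it by symbol. The motifs reported here, searched on both strands, include the E2F motif TTTNGCGC and the cyclic AMP element TGACGTCA. Also reported are the AP-1 motif, written TGANTCA, and the GC box, which reads GGGCGG. Others are the CCAAT box, read as its name, and the TATA box, read as TATAAA. The last reported are the E-box, with the letters CACGTG, and the forkhead (FOXO) motif, with the letters TGTTTAC. Capitals mark every match in the 3 windows, and in these no matches of different motifs overlapped. No E2F match was found in them, which says only that those letters are absent there. The window of Ccnd3 (GRCr8, chr9:20897826-20898125, minus strand) holds 3 GC boxes, the commonest kind of SP1 site, and 1 CCAAT box. A GC box occurs in 33.1% and a CCAAT box in 37.5% of the 33469 such windows of the rat genome, and a match of letters does not show a used site.
Ccnd3: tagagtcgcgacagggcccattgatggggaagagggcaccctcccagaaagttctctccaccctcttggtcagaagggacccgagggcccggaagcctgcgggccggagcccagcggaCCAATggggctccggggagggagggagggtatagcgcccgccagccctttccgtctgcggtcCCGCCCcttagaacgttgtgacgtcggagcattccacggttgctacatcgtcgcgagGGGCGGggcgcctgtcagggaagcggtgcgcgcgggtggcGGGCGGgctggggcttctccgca

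The E cyclins moved apart. Ccne1 (chromosome 1, 94485832 to 94494980) and Ccne2 (chromosome 5, 24434872 to 24446406) encode close relatives that bind CDK2, and both are known targets of E2F. Ccne1 stood at 8.79, 7.79 and 7.34 FPKM in MiaTAM, 6.49, 5.76 and 6.20 FPKM in BxTAM, 4.59, 4.27 and 5.16 FPKM in MDM and 4.39, 4.20 and 4.19 FPKM in cells alone. The MiaTAM libraries were highest, the BxTAM libraries came next without overlap, and MDM co-culture overlapped with cells alone. Ccne1 rose 1.89-fold in MiaTAM (0.92 ± 0.09, adjusted p = 3.01e-08) and 1.46-fold in BxTAM (0.54 ± 0.10, adjusted p = 5.56e-05) against cells alone, and was not called in MDM co-culture (0.16 ± 0.10, 95% interval -0.04 to 0.37, adjusted p = 0.152).

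Each step between the co-cultures was called for Ccne1. It rose by 0.75 ± 0.09 in MiaTAM against MDM (adjusted p = 1.58e-06), by 0.38 ± 0.09 in BxTAM against MDM (adjusted p = 0.00369) and by 0.37 ± 0.09 in MiaTAM against BxTAM (adjusted p = 0.00448). Among all tested genes, 96% had a smaller absolute change between MiaTAM and MDM and 91.4% between MiaTAM and BxTAM. Its window (GRCr8, chr1:99927860-99928159, minus strand) is shown because Ccne1 alone of the members followed the order MiaTAM, BxTAM, MDM with a call at each step upward; it holds 3 GC boxes.
Ccne1: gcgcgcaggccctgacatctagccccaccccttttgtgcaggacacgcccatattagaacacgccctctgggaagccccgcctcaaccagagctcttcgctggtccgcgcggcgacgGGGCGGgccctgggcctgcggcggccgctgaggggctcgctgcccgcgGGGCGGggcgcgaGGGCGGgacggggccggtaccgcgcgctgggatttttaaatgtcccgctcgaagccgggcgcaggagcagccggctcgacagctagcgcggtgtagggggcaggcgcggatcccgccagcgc

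Ccne2 took the opposite order. It stood at 3.85, 3.51 and 4.37 FPKM in MiaTAM, 4.85, 4.46 and 4.97 FPKM in BxTAM, 5.58, 5.51 and 5.01 FPKM in MDM and 6.78, 7.68 and 8.54 FPKM in cells alone. The 4 groups did not overlap, with cells alone highest and MiaTAM co-culture lowest. Ccne2 fell by 0.96 ± 0.09 in MiaTAM (adjusted p = 2.27e-08), 0.68 ± 0.09 in BxTAM (adjusted p = 2.27e-06) and 0.49 ± 0.09 in MDM co-culture (adjusted p = 7.02e-05) against cells alone, and by 0.46 ± 0.10 in MiaTAM against MDM (adjusted p = 0.000814). BxTAM against MDM was not called (-0.18 ± 0.10, 95% interval -0.38 to 0.02, adjusted p = 0.151).

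The step from BxTAM to MiaTAM was weak for Ccne2, at -0.28 ± 0.10 with an adjusted p of 0.0484. It was lost under 9 of 13 alternatives, with adjusted p from 0.0219 to 0.197, among them each of the scalings tried and the fits without BxTAM library 1, 2 or 3 (adjusted p = 0.113, 0.0569 and 0.149) and without MiaTAM library 1 or 2 (adjusted p = 0.105 and 0.197). The table's span of Ccne2 overlaps Ints8, which encodes a subunit of the Integrator complex. Ints8 changed by -0.40 ± 0.05 in MiaTAM, -0.16 ± 0.05 in BxTAM and -0.31 ± 0.05 in MDM co-culture against cells alone, and the sources used here do not state the strand setting of the counts, so reads of the shared stretch cannot be assigned.

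The opposite moves changed which E cyclin transcript was the more abundant. The ratio of Ccne1 to Ccne2 FPKM was 2.28, 2.22 and 1.68 in the MiaTAM libraries, 1.34, 1.29 and 1.25 in BxTAM, 0.822, 0.775 and 1.03 in MDM and 0.647, 0.547 and 0.491 in cells alone. Ccne1 exceeded Ccne2 in all 6 TAM libraries and in 1 of 3 MDM libraries, and in none of the 3 libraries of cells alone. The ratio was 3.66-fold higher in MiaTAM, 2.32-fold higher in BxTAM and 1.56-fold higher in MDM co-culture than in cells alone, and 2.35-fold higher in MiaTAM than in MDM co-culture. In each of these the groups did not overlap and the exact two-sided permutation p was 0.1, the smallest that 3 against 3 can give. The sum of both moved less, at 11.9 ± 0.686 FPKM in MiaTAM, 10.9 ± 0.601 FPKM in BxTAM, 10.04 ± 0.222 FPKM in MDM and 11.9 ± 0.782 FPKM in cells alone.

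**Figure D3:**
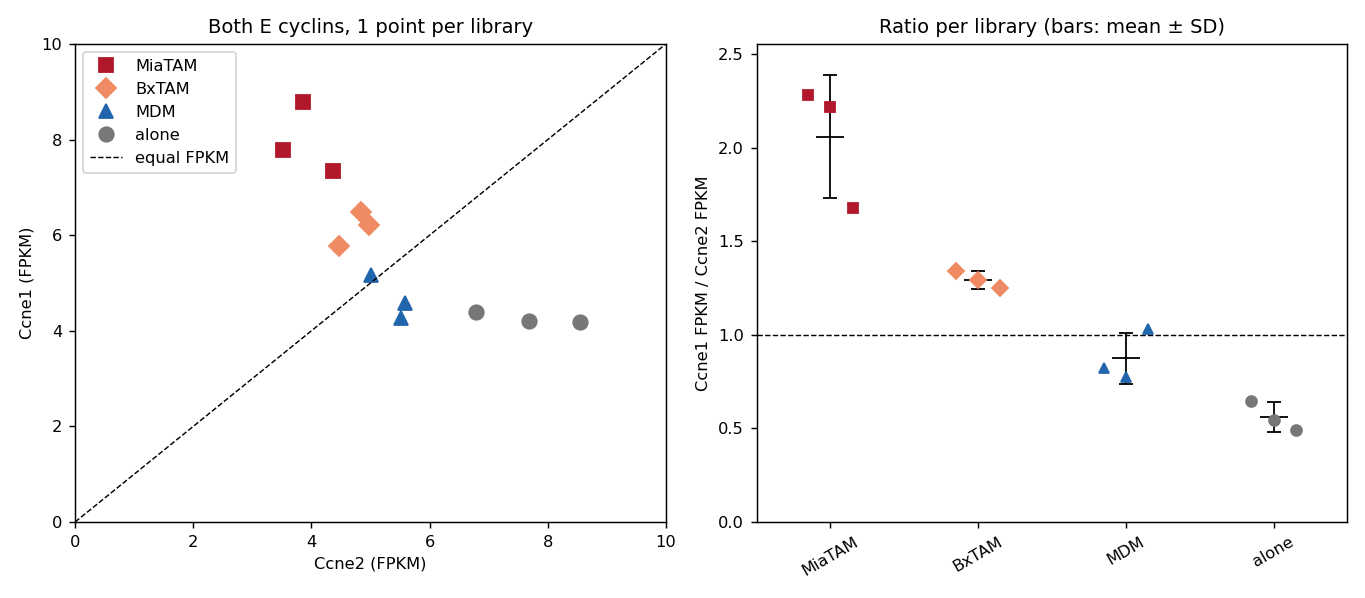
Left, Ccne1 against Ccne2 in FPKM, 1 point per library, with a dashed line of equal levels; right, their ratio per library with mean ± SD (n = 3) and a dashed line at 1. The 6 TAM libraries lie on the Ccne1 side of the line, from 1.25 to 2.28, and the libraries of cells alone on the Ccne2 side, from 0.491 to 0.647.

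Of the Cip/Kip inhibitors, Cdkn1a and Cdkn1b stood highest in MDM co-culture. Cdkn1a (chromosome 20, 6351458 to 6358864) encodes p21, an inhibitor known to rise after DNA damage. It stood at 95.1, 103 and 91.5 FPKM in MiaTAM, 98.0, 95.2 and 100.1 FPKM in BxTAM, 127, 134 and 124 FPKM in MDM and 79.1, 78.7 and 80.4 FPKM in cells alone. The MDM libraries were highest, both TAM groups lay together in the middle, and cells alone were lowest without overlap. Against MDM co-culture Cdkn1a fell by 0.43 ± 0.04 in MiaTAM (adjusted p = 2.23e-07) and by 0.41 ± 0.04 in BxTAM (adjusted p = 4.82e-07). Against cells alone it was higher by 0.29 ± 0.04 in MiaTAM (adjusted p = 9.06e-06), 0.31 ± 0.04 in BxTAM (adjusted p = 4.51e-06) and 0.72 ± 0.04 in MDM co-culture (adjusted p = 1.64e-11). MiaTAM and BxTAM differed by -0.02 ± 0.04 (95% interval -0.11 to 0.07).

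Cdkn1b (chromosome 4, 168689163 to 168693964) encodes p27, the inhibitor known to accumulate in resting cells, largely through protein stability. It stood at 36.7, 37.1 and 39.0 FPKM in MiaTAM, 47.3, 44.6 and 45.4 FPKM in BxTAM, 57.4, 55.8 and 52.3 FPKM in MDM and 33.7, 38.0 and 46.1 FPKM in cells alone. The co-cultures formed 3 steps without overlap, and cells alone spread across the MiaTAM and BxTAM range. Cdkn1b fell by 0.56 ± 0.07 in MiaTAM (adjusted p = 4.89e-06) and by 0.28 ± 0.07 in BxTAM (adjusted p = 0.00541) against MDM, and by 0.28 ± 0.08 in MiaTAM against BxTAM (adjusted p = 0.0100). Between MiaTAM and MDM, 92.2% of tested genes had a smaller absolute change.

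Against cells alone Cdkn1b rose by 0.51 ± 0.07 in MDM co-culture (adjusted p = 4.13e-06). The rise in BxTAM, 0.23 ± 0.08 (adjusted p = 0.0113), depended on single libraries of cells alone: it was 0.15 ± 0.07 without library 1 (adjusted p = 0.0731) and 0.37 ± 0.06 without library 3 (adjusted p = 2.05e-05, the lowest of a range up to 0.0731 over the alternatives). MiaTAM was not called (-0.05 ± 0.08, 95% interval -0.21 to 0.11, adjusted p = 0.577), and its sign turned without library 3 of cells alone (0.09 ± 0.06). The window of Cdkn1b (GRCr8, chr4:169491254-169491553, plus strand) is shown because its steps between co-cultures run against those of Ccne1; it holds 1 GC box and 2 CCAAT boxes.
Cdkn1b: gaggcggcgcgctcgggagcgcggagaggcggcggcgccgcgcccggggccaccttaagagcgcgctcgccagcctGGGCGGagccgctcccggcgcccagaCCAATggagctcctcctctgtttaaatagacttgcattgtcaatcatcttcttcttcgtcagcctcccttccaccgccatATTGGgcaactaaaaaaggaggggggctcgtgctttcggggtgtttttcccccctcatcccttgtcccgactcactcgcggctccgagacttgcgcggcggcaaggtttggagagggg

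Cdkn1c (chromosome 1, 216661080 to 216663721) encodes p57, an imprinted inhibitor of developing tissues. It stood at 2.40, 2.80 and 2.66 FPKM in MiaTAM, 2.38, 1.99 and 2.38 FPKM in BxTAM, 2.29, 3.05 and 2.58 FPKM in MDM and 1.39, 1.27 and 1.67 FPKM in cells alone. Every co-culture library lay above cells alone, and MiaTAM and BxTAM each overlapped with MDM but not with each other. It rose 1.83-fold in MiaTAM (0.87 ± 0.14, adjusted p = 1.15e-05), 1.57-fold in BxTAM (0.65 ± 0.14, adjusted p = 0.000407) and 1.86-fold in MDM co-culture (0.90 ± 0.13, adjusted p = 7.01e-06). Single libraries of all groups held between 75 and 171 raw counts of Cdkn1c. No pair of co-cultures differed by the test, with 95% intervals of -0.28 to 0.23 for MiaTAM against MDM, -0.50 to 0.02 for BxTAM against MDM and -0.05 to 0.48 for MiaTAM against BxTAM.

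Summed over the 3 Cip/Kip genes, transcript levels were 137 ± 5.28 FPKM in MiaTAM, 146 ± 3.51 FPKM in BxTAM, 186 ± 7.16 FPKM in MDM and 120.1 ± 7.18 FPKM in cells alone. The summed D cyclins stood at 319.9 ± 21.1, 308 ± 5.18, 297 ± 4.54 and 254 ± 5.98 FPKM in the same order of groups. The ratio of the Cip/Kip sum to the D cyclin sum was 0.428 ± 0.0171 in MiaTAM, 0.473 ± 0.0160 in BxTAM, 0.626 ± 0.0180 in MDM and 0.473 ± 0.0252 in cells alone. MDM co-culture stood above every other library, BxTAM overlapped with cells alone, and MiaTAM had the lowest mean but overlapped with cells alone. The ratio was 0.683-fold in MiaTAM and 0.755-fold in BxTAM relative to MDM (exact permutation p = 0.1 each, the smallest possible, two-sided), and 1.33-fold in MDM relative to cells alone (p = 0.1 by the same exact test).

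**Figure D4:**
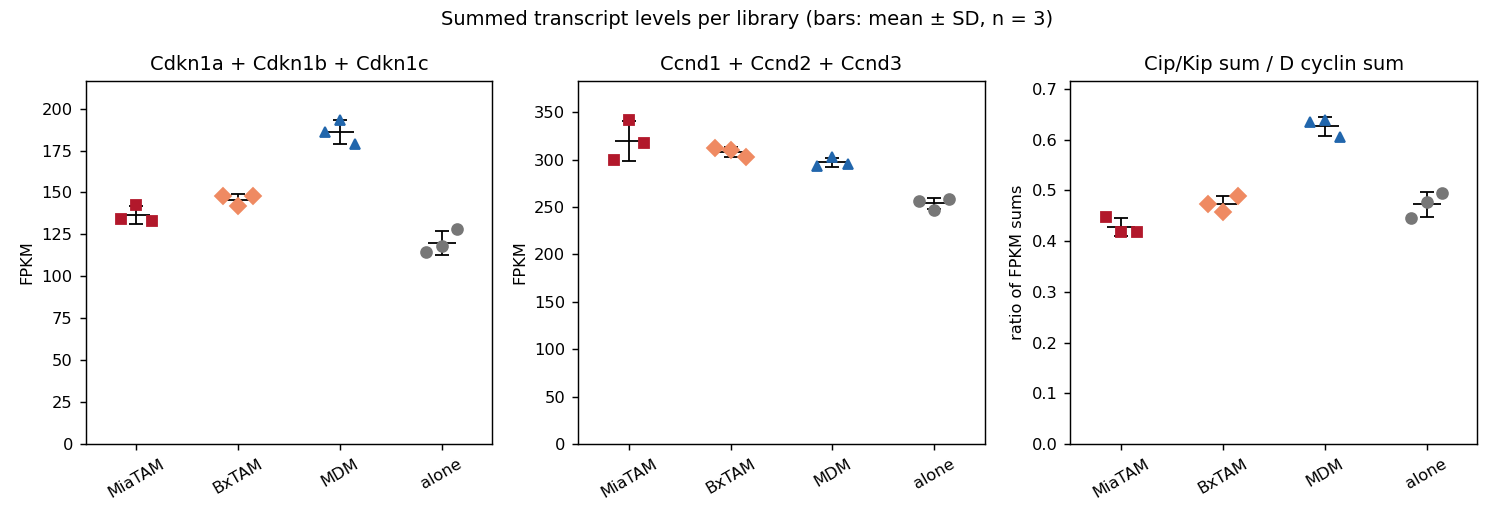
Summed FPKM of the Cip/Kip genes, summed FPKM of the D cyclins and the ratio of these sums in each library (vertical axes from 0), with mean ± SD (n = 3). D cyclins are lowest in cells alone, at 254 FPKM, and the ratio is highest in MDM co-culture, at 0.626.

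No Ink4 transcript of the chosen pair was seen. Cdkn2a (chromosome 5, 107823330 to 107841175), which encodes p16 and, in another reading frame, the ARF protein, had 0 counts in all 12 libraries. Cdkn2b (chromosome 5, 107845951 to 107858104), which encodes p15, a known target of TGF-beta, also had 0 counts. Taking 3 counts over a group as the limit that a count of 0 allows, either gene could have stood at up to 0.0553 CPM in MiaTAM, 0.0553 CPM in BxTAM, 0.0532 CPM in MDM and 0.0536 CPM in cells alone. The absence held for both neighbours in the genome but not for all of the stretch around them, where counts lay mainly on the Mtap side. Mtap, the methionine salvage gene that ends before Cdkn2a starts (chromosome 5, 107711077 to 107777530), had 2334 counts in MiaTAM, 2357 in BxTAM, 2361 in MDM and 3401 in cells alone. Klhl9, an adaptor of a ubiquitin ligase within 500 kb, had 6967, 8843, 10212 and 9769 counts in the same groups. On the far side of Cdkn2b, the nearest entry, AABR07049156.1, had 0 counts, and Dmrta1 had 12 in all libraries together. The interferon genes Ifna2 and Ifna16l1, which lie between Klhl9 and Mtap, also had 0 counts.

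Of the remaining Ink4 genes, Cdkn2c, which encodes p18, was expressed, and Cdkn2d was not found by its symbol. Cdkn2c averaged 8.68 FPKM in MiaTAM, 9.12 FPKM in BxTAM, 10.9 FPKM in MDM and 12.8 FPKM in cells alone. It fell by 0.55 ± 0.09 in MiaTAM (adjusted p = 3.56e-05) and by 0.48 ± 0.09 in BxTAM (adjusted p = 0.000177) against cells alone, while MDM co-culture was not called (-0.20 ± 0.09, adjusted p = 0.0582).

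Transcripts of Cdk4, Cdk6 and Cdk2, the kinases that these proteins control, fell in every co-culture. They belong to a list of 8 G1 kinase and activator genes, all tested. Of these, 1 rose and 5 fell in MiaTAM, 1 rose and 5 fell in BxTAM, and 0 rose and 4 fell in MDM co-culture. The medians were -0.27, -0.19 and -0.17. Of all genes, 31.4%, 30% and 32% rose in that order of groups, and 33.7%, 30.9% and 33.1% fell. Cdk4, a partner of D cyclins, averaged 108 FPKM in MiaTAM, 94.4 FPKM in BxTAM, 98.8 FPKM in MDM and 140.1 FPKM in cells alone, and fell in each co-culture (-0.36 ± 0.04, -0.56 ± 0.04 and -0.48 ± 0.04). Cdk2, the partner of E cyclins, fell by 0.69 ± 0.05 in MiaTAM, 0.59 ± 0.05 in BxTAM and 0.64 ± 0.05 in MDM co-culture (adjusted p = 6.4e-10, 7e-09 and 1.56e-09). Cdk6, the other partner of D cyclins, was lower by 0.66 ± 0.06, 0.42 ± 0.06 and 0.78 ± 0.06 in the same order of groups. Transcripts of Ccnd1 and Ccnd3 and of Cdk4 and Cdk6 moved in opposite directions in every co-culture.

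The retinoblastoma and E2F genes split. Of 13, all tested, 4 rose and 9 fell in MiaTAM, 3 rose and 9 fell in BxTAM, and 3 rose and 9 fell in MDM co-culture against cells alone. Of all genes, 31.4% rose and 33.7% fell in MiaTAM, and 30% rose and 30.9% fell in BxTAM. In MDM co-culture 32% of all genes rose and 33.1% fell. The share of this list that rose was no higher than that over all genes in any co-culture, and near it in MiaTAM. The share that fell was higher in each. Rb1, the retinoblastoma gene, rose by 0.61 ± 0.05 in MiaTAM, 0.68 ± 0.05 in BxTAM and 0.69 ± 0.05 in MDM co-culture. E2f1, an activator of replication genes, fell by 1.16 ± 0.07, 1.26 ± 0.07 and 1.70 ± 0.07 in that order. Rbl1, the p107 pocket protein, fell by 0.99 ± 0.06 in MiaTAM and by 0.96 ± 0.06 in MDM co-culture.

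The E2F targets of the G1/S transition fell throughout. Of 18 such genes other than Ccne1 and Ccne2, all 18 fell in each co-culture against cells alone, with medians of -1.36 in MiaTAM, -1.32 in BxTAM and -1.40 in MDM, beside 33.7%, 30.9% and 33.1% of all genes. Mcm10, a replication initiation factor, averaged 2.50 FPKM in MiaTAM and 11.9 FPKM in cells alone (-2.24 ± 0.07). Rrm1, the large subunit of ribonucleotide reductase, averaged 47.4 FPKM in MiaTAM, 45.3 FPKM in BxTAM, 46.6 FPKM in MDM and 108.8 FPKM in cells alone, a fall of 1.19 ± 0.04 in MiaTAM. Ccne2 fell with this list, and Ccne1 was higher in the TAM co-cultures where all 18 were lower.

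Between co-cultures calls among the replication targets went in both directions. In MiaTAM against MDM 5 of 18 rose and 5 fell, where 19.8% of all genes were called higher and 21.1% lower. In BxTAM against MDM 5 rose and 7 fell, beside 17.4% higher and 17.3% lower of all genes. Cdc6, the helicase loader, was higher by 0.67 ± 0.10 in MiaTAM and 0.52 ± 0.10 in BxTAM. Orc1, of the origin recognition complex, was higher by 0.65 ± 0.11 in MiaTAM and 0.68 ± 0.11 in BxTAM. Rfc3, a subunit of the clamp loader, was lower by 0.22 ± 0.07 in MiaTAM and by 0.35 ± 0.07 in BxTAM. E2f1 was higher by 0.55 ± 0.07 in MiaTAM and 0.44 ± 0.07 in BxTAM than in MDM co-culture. Against MDM, genes of later phases went one way. All 11 tested genes among A and B cyclins and mitotic genes fell in MiaTAM and in BxTAM, with medians of -0.75 and -0.81. In MiaTAM against BxTAM 5 of the 11 were called higher and 1 lower, beside 11% and 13.3% of all genes. Ccna2, the cyclin of S phase that follows the E cyclins, averaged 8.54 FPKM in MiaTAM, 8.41 FPKM in BxTAM, 21.0 FPKM in MDM and 40.7 FPKM in cells alone.

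**Figure D5:**
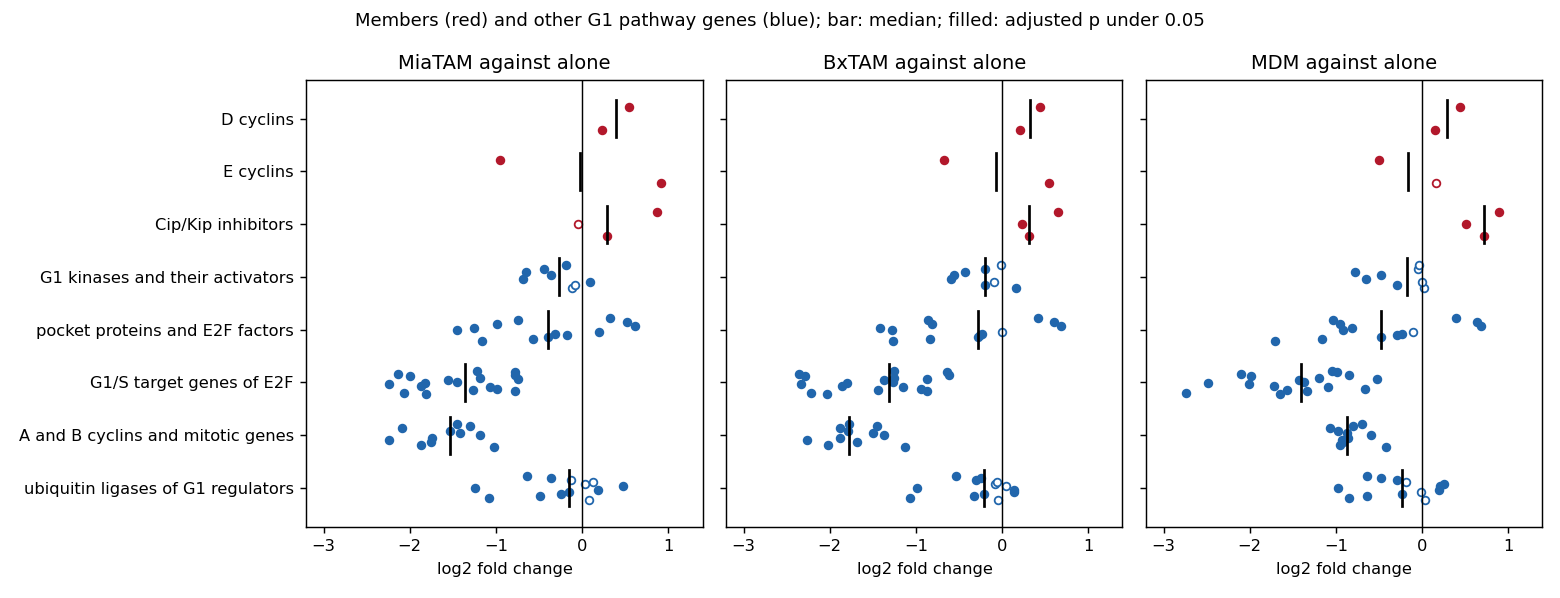
Log2 fold change against cells alone (horizontal axis) of every tested gene in 8 lists (rows), 1 panel per co-culture; members are red, other genes blue, black bars are list medians and filled points have an adjusted p under 0.05. All 18 G1/S targets lie below 0 in each panel, and D cyclins and most Cip/Kip points above it. The E cyclin points fall on both sides in each panel, with Ccne1 not called in MDM.

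Genes that destroy or control the members were also measured. Of 13 genes for ubiquitin ligases of G1 regulators, 2 rose and 7 fell in MiaTAM, 2 rose and 7 fell in BxTAM, and 3 rose and 7 fell in MDM co-culture against cells alone. Of all genes, 31.4% rose and 33.7% fell in MiaTAM, 30% rose and 30.9% fell in BxTAM, and 32% rose and 33.1% fell in MDM co-culture. Skp2, which marks p27 for destruction, fell by 0.64 ± 0.10, 0.53 ± 0.10 and 0.64 ± 0.10, and its cofactor gene Cks1b by 1.08 ± 0.05, 1.07 ± 0.05 and 0.84 ± 0.05. Of 18 transcriptional regulators, 7 rose and 6 fell in MiaTAM, 7 rose and 7 fell in BxTAM, and 9 rose and 8 fell in MDM co-culture, where in MiaTAM the list's shares lie near those over all genes. Ezh2, the Polycomb enzyme known to silence the Cdkn2a locus, fell by 1.24 ± 0.04 in MiaTAM, 1.24 ± 0.04 in BxTAM and 0.88 ± 0.04 in MDM co-culture. Cdkn2a had 0 counts in every library, cells alone included, so a link between both genes was not tested. Against MDM co-culture 3 of the 18 regulators rose and 6 fell in MiaTAM, and 4 rose and 7 fell in BxTAM. The shares over all genes were 19.8% higher and 21.1% lower in MiaTAM, and 17.4% and 17.3% in BxTAM. Zbtb17, the Miz-1 factor known to activate Cdkn1a, was lower by 0.26 ± 0.06 in MiaTAM and 0.40 ± 0.06 in BxTAM. Myc, which represses Cdkn1a through Miz-1, was higher by 0.51 ± 0.06 and 0.45 ± 0.06. Egr1 was lower by 1.36 ± 0.04 and 1.53 ± 0.04, and Klf4 was higher by 0.41 ± 0.06 in each. A link between any of these and Cdkn1a was not tested.

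Across the 12 libraries the members fell into few patterns, given as descriptions since the libraries share groups and depth. Pearson's r of log2 CPM was 0.90 between Ccnd1 and Ccnd3, 0.90 between Ccnd3 and Cdkn1c, 0.79 between Cdkn1a and Cdkn1b, and -0.89 between Ccne1 and Ccne2. Among 10515 other genes, those closest to Ccne1 were Rab4a (r = 0.98), a GTPase of endosome recycling, and Il1rn (r = 0.97), the interleukin-1 receptor antagonist. Closest to Cdkn1a were Col5a1 (r = 0.98), a collagen, and Kdm6b (r = 0.98), a histone demethylase. Ccnd1 ran closest to Rab27a (r = 0.97) and Mt-cox3 (r = 0.95), Ccnd3 to Kcnh1 and Slc25a1 (r = 0.98 each), Ccne2 to Sept10 and Mlf1 (r = 0.97 each), Cdkn1b to Gmcl1 and Six4 (r = 0.93 each) and Cdkn1c to Pelo and Eef1g (r = 0.97 each).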

How the data were processed

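The series profiles mRNA of rat Schwann cells by sequencing, with 12 libraries in 4 groups of 3 read from the sample titles. A stranded mRNA kit was used, per the labels' protocols. CASAVA, HISAT2, StringTie 1.3.0 and the build Rnor_6.0 were used, per the submitters' processing notes; the sources used here do not name the counting tool, annotation release or strand setting. The authors deposited raw counts per gene, per the file headers, together with FPKM columns deposited beside them.

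The members and gene lists were chosen with earlier results of these data known. Genes were kept by filterByExpr (a minimum count of 10), scaled by TMM (factors 0.980 to 1.01) and tested in edgeR 4.0.16 under R 4.3.3 in 1 quasi-likelihood fit with 1 mean per group, for 6 comparisons. The standard error is the size of a change over the square root of F. Exact permutation tests were two-sided. Each tested gene named from a list, cell type markers apart, was among its 4 smallest p in at least 1 comparison described. Not every such gene is named, and values of a named gene are also given where it ranked lower. For each tested member the text names the 2 genes of at least 1 CPM with the highest correlation. Alternatives were DESeq2 1.42.0, limma 3.58.1 on log2(FPKM + 1), other scalings, no filter, only the groups compared, a replicate block and leaving out each library. The fit was checked on simulated counts. No 2 libraries of a group agreed within sampling noise. Promoter sequences are from RefSeq (GRCr8); 1 further motif searched in them is not reported here.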

Additional observations from a re-analysis of the deposited data

How the results depend on the processing

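The number of members called stayed within 1.5 times its value in all 6 comparisons under every alternative run. Of 294 values of single members under other settings, 285 kept direction and call. All calls of Ccne1, Cdkn1a and Ccnd3 reported as made held under every alternative. Depth limits Ccnd2, which entered the test without the count filter and was called in MiaTAM against cells alone (2.32 ± 0.89, adjusted p = 0.0261), so that 7 members were called there.

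Leaving out 1 library gave 6918 to 7104 called genes for BxTAM and 7561 to 7798 for MiaTAM against cells alone, and 7448 to 7633 for MDM against cells alone. For MiaTAM against BxTAM it gave 1933 to 3113, with the lowest without MiaTAM library 2 (1933), BxTAM library 3 (1976) and BxTAM library 2 (1978), against 2997 with all. Members called there ran from 2 to 3, from 6 to 7 for BxTAM against cells alone and from 4 to 6 for MiaTAM against MDM.

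Signs turned for values that were not called in either fit. Ccnd3 in BxTAM against MDM was 0.00063 with DESeq2 size factors, 0.00062 by DESeq2, 0.0127 with limma and 0.0039 with only both groups, and ran from -0.0149 to 0.0255 when 1 library was left out. Cdkn1b in MiaTAM against cells alone was 0.0228 with upper-quartile factors and ran from -0.132 to 0.0945, the highest without library 3 of cells alone. Cdkn1c in MiaTAM against MDM ran from -0.115 to 0.0929. In MiaTAM against BxTAM, Ccnd1 ran from -0.0091 to 0.0703 and Cdkn1a from -0.0660 to 0.0109, and Ccnd3 was called without MiaTAM library 1 (0.16, adjusted p = 0.0309; up to 0.692 over the alternatives). The cause was not tested.

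Same-numbered libraries of different groups deviated together in none of 18 pairs (correlations from -0.13 to 0.09), so the numbers were not taken to pair them. With the replicate number as a block, 8021 genes were called in MiaTAM, 7496 in BxTAM and 8046 in MDM against cells alone, 5059 and 4275 in MiaTAM and BxTAM against MDM, and 2993 in MiaTAM against BxTAM, and the counts of members called were equal to those without it.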
